A study of Homo sapiens with 8 samples.

Results

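Accessible chromatin was examined around 9 genes of the megakaryocyte lineage in HUDEP-2 cells, an immortalized human line of erythroid precursors that depends on Kit signaling. The genes were FLI1, MEIS1, ITGA2B, ITGB3, GP1BA, GP9, PF4, VWF and THBS1. Peaks were assigned to a gene when their summit, the base of highest fragment pileup, lay in the gene body or within 50 kb of one of its transcription start sites. After merging of overlapping peaks, 45 of the 43654 accessible regions of the 4 libraries met this rule. They came from 30 and 33 peaks in the PBS libraries and from 34 and 34 in the SCF libraries.

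The cells carried a scrambled control guide RNA (sgControl) in a lentiviral vector that also encodes dCas9-KRAB, a repressor fusion, so that the same vector was present in both treatments. After 5 h in medium without growth factors they received either 50 ng/ml of SCF, the ligand of the Kit receptor, or PBS for 1 h. Assay for transposase-accessible chromatin (ATAC-seq) libraries were made from 50000 cells, with 2 biological duplicates per treatment. The 4 samples with a guide against EGR1 were not analysed here. The libraries held 29269 to 33616 peaks, and their depth recovered from the background pileup was 1 and 1.42 in PBS and 0.883 and 0.843 in SCF, relative to PBS replicate 1. The total number of reads is unknown, and an exact permutation test of 2 libraries against 2 cannot give a p below 0.333.

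Erythroid cells and megakaryocytes arise from a common progenitor and share regulators such as GATA1 and TAL1. The ETS factor FLI1 favours the megakaryocyte fate and its targets, whereas KLF1 favours the erythroid fate. Megakaryocytes release platelets, whose adhesion rests on the αIIbβ3 integrin and the glycoprotein Ib-IX complex and whose granules hold chemokines and adhesive proteins.

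The start sites of 4 of the 9 genes were accessible in every library: MEIS1, ITGA2B, ITGB3 and THBS1. No library had a peak within 1 kb of any start site of FLI1, GP1BA, GP9, PF4 or VWF. The share of all 20163 protein-coding genes with such a promoter peak in all 4 libraries was 59.7%, and 55.2% when only the canonical transcript was used, a choice under which the same count of 4 members was found. The sequences at 7 summits are given here because the descriptions that follow refer to them: 2 start sites called in every library (ITGA2B and THBS1), the 2 distal regions with the largest fitted differences between treatments (the ITGB3 intron and upstream of VWF), 2 further distal regions called in every library (upstream of ITGA2B and of GP9), and the region called in PBS libraries alone. Each is the plus strand of GRCh37 (hg19), 60 bases on either side of the summit. Capitals mark short words of 5 factor families on either strand. For GATA factors the word was AGATAA, or the related form TGATAA. For AP-1 it was TGANTCA, where N is any base. For RUNX factors the word searched was TGTGGTT, for EGR factors it was GCGTGGG, and for KLF and SP factors (KLF/SP) it was CCNCNCCC. The EGR and KLF/SP words can overlap, as they do at THBS1.
ITGA2B start site, chr17:42467202-42467322: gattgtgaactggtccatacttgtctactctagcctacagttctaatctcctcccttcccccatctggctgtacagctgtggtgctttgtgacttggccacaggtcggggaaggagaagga
ITGA2B upstream, chr17:42470811-42470931: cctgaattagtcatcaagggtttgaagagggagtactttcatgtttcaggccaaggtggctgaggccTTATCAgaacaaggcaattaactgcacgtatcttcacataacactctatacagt
ITGB3 intron, chr17:45366004-45366124: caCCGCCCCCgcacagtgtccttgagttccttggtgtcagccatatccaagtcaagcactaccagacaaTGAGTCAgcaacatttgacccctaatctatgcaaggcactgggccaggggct
VWF upstream, chr12:6277053-6277173: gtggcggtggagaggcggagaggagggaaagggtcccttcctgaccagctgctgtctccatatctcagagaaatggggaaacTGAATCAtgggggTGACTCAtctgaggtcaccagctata
GP9 upstream, chr3:128735692-128735812: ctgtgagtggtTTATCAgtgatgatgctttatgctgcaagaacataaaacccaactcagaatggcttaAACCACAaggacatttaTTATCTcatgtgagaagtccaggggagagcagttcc
THBS1 start site, chr15:39872597-39872717: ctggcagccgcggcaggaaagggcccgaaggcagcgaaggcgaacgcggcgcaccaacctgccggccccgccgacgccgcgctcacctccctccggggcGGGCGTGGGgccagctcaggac
FLI1 downstream, chr11:128701030-128701150: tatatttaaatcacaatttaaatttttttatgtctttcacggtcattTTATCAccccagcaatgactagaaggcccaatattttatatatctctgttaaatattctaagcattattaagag
The ITGA2B start site held none of the words, the upstream ITGA2B and FLI1 windows a GATA word, the GP9 window GATA and RUNX words, and the ITGB3 and VWF windows AP-1 words.

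**Figure D1:**
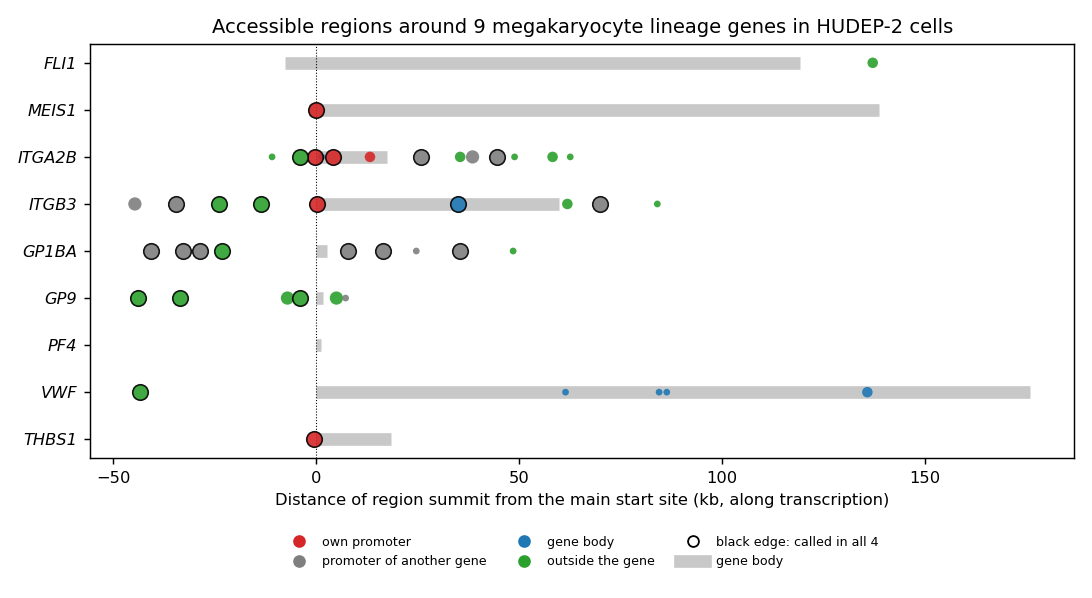
Each circle is a merged accessible region, placed by the distance in kb of its summit from the main start site of the gene (rows), with positive values in the direction of transcription. Colour gives the class of the region, size the number of libraries with a peak and a black edge a call in all 4; red circles at the dotted line mark accessible start sites at MEIS1, ITGA2B, ITGB3 and THBS1, and the PF4 row is empty.

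Of the 45 regions, 6 were promoters of the genes themselves, 14 were promoters of neighbouring genes, 6 lay in gene bodies and 19 lay outside. A promoter here is a region within 1 kb of the start of any annotated transcript, so starts inside a gene are included. A peak in all 4 libraries was found for 24 of the 45 regions, beside 51.3% of all regions in the genome. Among the 25 regions with no start site of any gene within 1 kb, 9 were called in all 4 libraries, beside 35.0% of all such regions. The stability of the calls around megakaryocyte genes was thus close to that of the genome at large. Per 100 kb there were 11.5 regions around ITGA2B, 9.0 around GP1BA, 6.56 around ITGB3 and 6.0 around GP9. The values were 1.85 for VWF, 0.885 for THBS1, 0.525 for MEIS1 and 0.460 for FLI1, and PF4 had no region. These values order the 9 genes only, since no genome-wide density was computed. Promoters of neighbouring genes made up 7 of the 9 regions around GP1BA.

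FLI1, which activates many platelet genes, had no called peak within its gene body. The gene spans chr11:128556430-128683162 on the plus strand. Its one region, at chr11:128700969-128701497, lay beyond the end of the gene, 137.12 kb downstream of the main start. It was called in both PBS libraries, with pileups of 9 and 17 fragments, and in neither SCF library. Percentile ranks by fold enrichment, in which 100 is the strongest peak of a library, were 18.4 and 54.8. It was the only region of the 45 called in PBS alone, and 2.37% of all regions had this pattern. No region was called in SCF alone, beside 1.65% of all regions. This contrast depended on the setting: 3 regions were called in SCF alone and 1 in PBS alone with lists of equal length, and 1 and 1 with peaks of −log10 q of at least 5. Without 1 library, the SCF-alone count reached 3 (PBS replicate 2 or SCF replicate 2 left out) or 5 (SCF replicate 1 left out). The FLI1 region is assigned through an alternative start site and is not counted when only canonical start sites are used.

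MEIS1, a homeobox factor of stem cells and megakaryocytes, had a single region in its neighbourhood of 190.42 kb. The region lay at the main start site (chr2:66661541-66662577; gene at chr2:66660584-66801001, plus strand). Its ranks were 28.6 and 23.4 in PBS and 15.5 and 19.2 in SCF libraries. The peak was weak everywhere, with 9 to 14 fragments at the summit. Both SCF ranks lay below both PBS ranks, but the fitted difference of −0.16 on the log2 scale (SE 0.15) was about the size of its error.

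ITGA2B encodes the αIIb integrin chain (chr17:42449548-42467017, minus strand). Its main start site was accessible but weak in PBS, at chr17:42467052-42467420. The ranks there were 1.07 and 10.3 in PBS and 29.5 and 18.7 in SCF libraries. The treatments did not overlap by rank, and the pileups were 18 and 34 fragments in PBS and 35 and 29 in SCF libraries. In bulk libraries such as these, a site open in few cells and a site open weakly in all cells cannot be told apart. An intronic region at an internal start, 4.18 kb downstream, was stronger, with ranks of 48.2 and 62.5 in PBS and 52.7 and 43.0 in SCF libraries. A further internal start at 13.28 kb was called in PBS replicate 1 (rank 12.2) and SCF replicate 1 (rank 11.6) only.

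Upstream of ITGA2B, a region at −3.85 kb (chr17:42470539-42471250) was called in all libraries. It ranked 46.2 and 67.8 in PBS and 56.0 and 77.3 in SCF libraries, so replicates differed more than treatments. The other regions called in all 4 libraries in this neighbourhood were the promoters of GRN, a secreted growth factor precursor, and FAM171A2. A region in the first part of the gene body, at 1.40 kb, was called in SCF replicate 2 alone.

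ITGB3 encodes the β3 chain that pairs with αIIb (chr17:45331193-45391109, plus strand). Its promoter region lay at chr17:45331035-45331741 and ranked 55.3 and 71.8 in PBS and 53.0 and 80.2 in SCF libraries. This was the strongest start site of the 9 genes by mean rank, and its treatments overlapped. The start is shared with a readthrough gene, ENSG00000259753, and the peak cannot be assigned to either.

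Away from any start site, ITGB3 had 3 regions that every library called. The intronic region at 34.87 kb (chr17:45365848-45366502) ranked 13.4 and 35.2 in PBS and 68.8 and 61.0 in SCF libraries. Its summit held 10 and 13 fragments in PBS libraries (exact 95% Poisson intervals 4.80 to 18.4 and 6.92 to 22.2, for counting error only) and 23 and 21 in SCF libraries (14.6 to 34.5 and 13 to 32.1). Divided by the genome-wide background pileup of each library, these were 9.56 and 8.67 against 24.4 and 23.7. The treatments did not overlap in rank, in pileup or over background, although the counting intervals of single libraries did. Rank and pileup come from the same peak values and are not separate measurements. Before normalisation, pileup over background was higher with SCF by a median log2 of 0.154 over all 22291 regions compared on that scale.

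The other distal regions lay upstream of ITGB3. At −13.67 kb (chr17:45317214-45317807) the ranks were 38.9 and 12 in PBS and 57.2 and 50.4 in SCF libraries. At −23.84 kb (chr17:45306889-45307919) they were 28.5 and 27.9 in PBS and 48.2 and 44.6 in SCF libraries. In both regions the SCF libraries were above the PBS libraries. The promoters of MYL4, a myosin light chain gene, and of EFCAB13 and its divergent transcript EFCAB13-DT also lay in the neighbourhood. The EFCAB13 promoter moved the other way, with ranks of 89.9 and 91.6 in PBS and 77 and 75.8 in SCF libraries. It lies 70.04 kb from the main ITGB3 start, beyond the end of the gene, and is assigned through an alternative start site.

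GP1BA and GP9 encode subunits of the glycoprotein Ib-IX complex, the platelet receptor for von Willebrand factor. GP1BA (chr17:4835572-4838318, plus strand) lies among other genes, and 7 of the 9 regions around it were their promoters: those of MINK1, CHRNE with C17orf107, CHRNE, RNF167 with SLC25A11, PFN1 with ENO3, ENO3, and SPAG7. The nearest summit of any library was 7.88 kb from its start. One distal region called in all libraries lay within CHRNE at −23.16 kb (chr17:4812266-4812807). It ranked 14.3 and 48.1 in PBS and 56.7 and 63.3 in SCF libraries, which did not overlap although the PBS libraries were far apart.

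GP9 (chr3:128779622-128781249, plus strand) had its nearest summit 3.76 kb from the start. Of its 6 regions, 3 were called in all 4 libraries and none of these was a promoter. The region at −33.44 kb, within EFCC1 (chr3:128745724-128746397), was the strongest distal site of the 9 genes, with ranks of 84.5 and 85.1 in PBS and 94.7 and 83.2 in SCF libraries. The region at −43.87 kb, also within EFCC1 (chr3:128735371-128736115), ranked 33.7 and 40.2 in PBS and 28.8 and 43.2 in SCF libraries. In both regions the treatments overlapped. Closer to the gene, at −3.84 kb (chr3:128775482-128776145), the ranks were 25.3 and 44 in PBS and 44.7 and 53.4 in SCF libraries, which were apart by less than a point. The lncRNA ENSG00000290001 had a promoter peak in SCF replicate 1 alone.

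PF4 (chr4:74846528-74847744, minus strand), the platelet factor 4 chemokine of α-granules, had no region. The nearest summit in any library was 57.2 kb from its start. VWF (chr12:6058043-6233936, minus strand), the adhesive ligand of the glycoprotein Ib-IX complex, had no start site peak either. In its introns, 3 regions were called in a single library each, and 1 in PBS replicate 2 and SCF replicate 2 with ranks of 43.1 and 32.6. At the depths reached here, no intronic VWF site was found in every library.

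Upstream of VWF, a region at −43.28 kb (chr12:6276913-6277406), outside annotated genes, was called in all libraries. Its assignment to VWF rests on distance alone, and the gene on which it acts was not tested. The region ranked 13.3 and 32.7 in PBS and 52.3 and 65.5 in SCF libraries. The summit pileups were 9 and 12 fragments in PBS and 15 and 19 in SCF libraries, or 8.61 and 8.0 against 15.9 and 21.5 times the background. The SCF libraries were thus higher by rank and by pileup, which are not separate measurements. The shift of the background scale toward SCF, given for the ITGB3 intron, applies here too.

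THBS1, which encodes thrombospondin 1 of platelet granules (chr15:39873280-39891667, plus strand), had a single region, 0.62 kb upstream of its start (chr15:39872148-39872964). Its ranks were 34.2 and 49.3 in PBS and 16.9 and 37.3 in SCF libraries. The treatments overlapped, and the summit held 8 to 16 fragments.

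**Figure D2:**
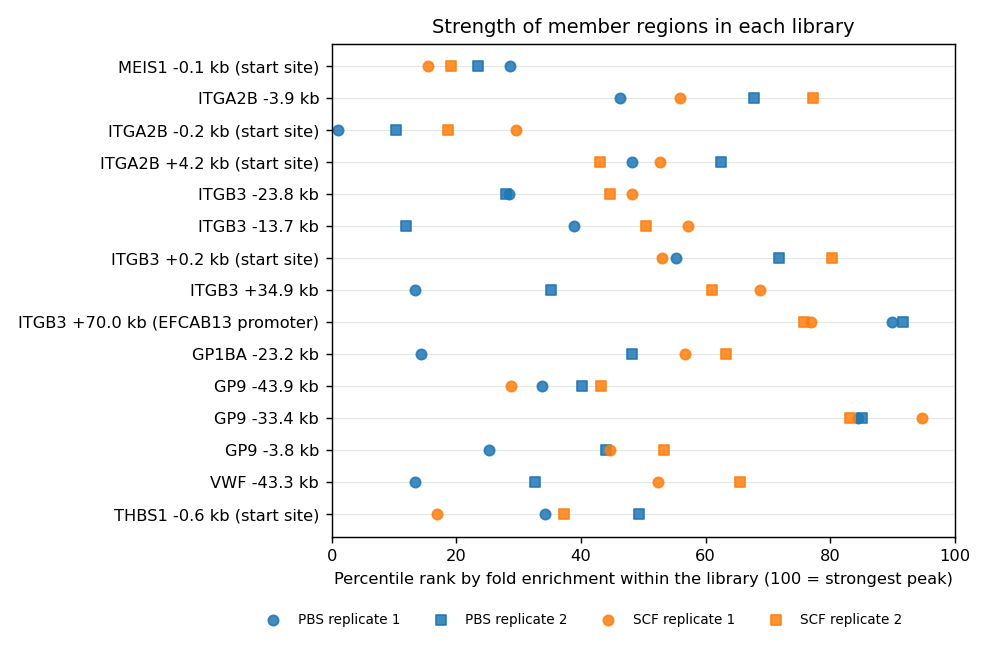
The percentile rank of each region (horizontal axis, 100 is the strongest peak of a library) is shown for the 15 regions called in all 4 libraries that are described above, with PBS libraries in blue, SCF libraries in orange, circles for replicate 1 and squares for replicate 2. Orange symbols lie to the right of both blue ones at the ITGB3 intron (68.8 and 61.0 against 13.4 and 35.2) and upstream of VWF (52.3 and 65.5 against 13.3 and 32.7).

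The treatments were then compared over the 22398 regions called in all 4 libraries. Quantile-normalised log2 fold enrichment was fitted with limma, and p-values were adjusted by the Benjamini-Hochberg method over all regions. At an adjusted p under 0.05, limma called 0 of the 24 member regions and 0 of all regions (0%). The lowest adjusted p of a member was 0.705. From reads, with another method and a fold-change cut-off, the study reported sites that gained and sites that lost accessibility with SCF. The 0 calls here, from peak lists of 2 libraries per treatment, do not show that no site changed. At an unadjusted p under 0.05, limma gave 7 members, 6 of them higher with SCF and 1 lower. The shares of all regions were 3.64% and 3.14%, and 1519 regions in all. The count of 7 fell to 6 with a replicate block and to 6 with an intensity trend in limma. It was lower still when any 1 library was left out. With peaks of −log10 q of at least 5, limma had 2 such members of 16 fitted, ITGB3 −23.84 kb and the EFCAB13 promoter, and the other 5 were no longer called in every library. Of the 6 regions higher with SCF, 3 lie around the same gene, ITGB3.

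The largest difference was at the ITGB3 intron. Its log2 fold enrichment averaged 2.27 ± 0.23 with PBS and 3.15 ± 0.20 with SCF (SD, n = 2). The difference of 0.88 (SE 0.18, 95% interval 0.45 to 1.31) had a limma adjusted p of 0.705. The VWF upstream region followed, at 2.25 ± 0.20 with PBS and 3.02 ± 0.14 with SCF (SD, n = 2). Its difference was 0.78 (SE 0.17, 95% interval 0.38 to 1.17, limma adjusted p = 0.705). Both differences exceeded the SD between replicates, and neither passed the test over all regions.

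Smaller differences in the same direction were fitted at GP1BA −23.16 kb (0.63, SE 0.20), ITGB3 −13.67 kb (0.60, SE 0.22), the ITGA2B start site (0.53, SE 0.20) and ITGB3 −23.84 kb (0.39, SE 0.15). Single libraries moved 3 of these values. ITGB3 −13.67 kb was 0.29 without PBS replicate 2, GP1BA −23.16 kb was 0.35 without PBS replicate 1, and the ITGA2B start site was 0.34 without PBS replicate 1. The EFCAB13 promoter was lower with SCF by the fit (−0.35, SE 0.14). For the start sites of the other genes the intervals included 0. They ran from −0.41 to 0.61 at ITGB3, from −0.51 to 0.20 at MEIS1 and from −0.67 to 0.13 at THBS1.

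The fitted differences were then set apart by the class of region. All 9 member regions with no start site within 1 kb had a difference above 0, with a median of 0.39 (GP9 −43.87 kb was below 0 on the scale of summit pileup over background), beside 53.3% of all such regions and a median of 0.02. Without single libraries, GP9 −43.87 kb and GP9 −33.44 kb changed sign. With peaks of −log10 q of at least 5, the regions with the largest of these differences could not be fitted. These were the ITGB3 intron, VWF −43.28 kb, GP1BA −23.16 kb and ITGB3 −13.67 kb. GP9 −43.87 kb was 0.00027 in that setting. Of these 9 regions, 5 had an unadjusted p under 0.05 with limma, beside 6.39% of all such regions. Of the 15 regions within 1 kb of a start site, 7 had a difference above 0, beside 46.8% of all such regions, and their median was −0.07. Over all 24 members, 16 were above 0 and the median was 0.11, against a median of −0.003 over all regions fitted. These are counts over neighbouring sites in the same 4 libraries and carry no test. By ranks, 8 members had both SCF libraries above both PBS libraries, beside 16.0% of all regions, and 3 had both below, beside 19.3%. The ranks of the remaining 13 overlapped.

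**Figure D3:**
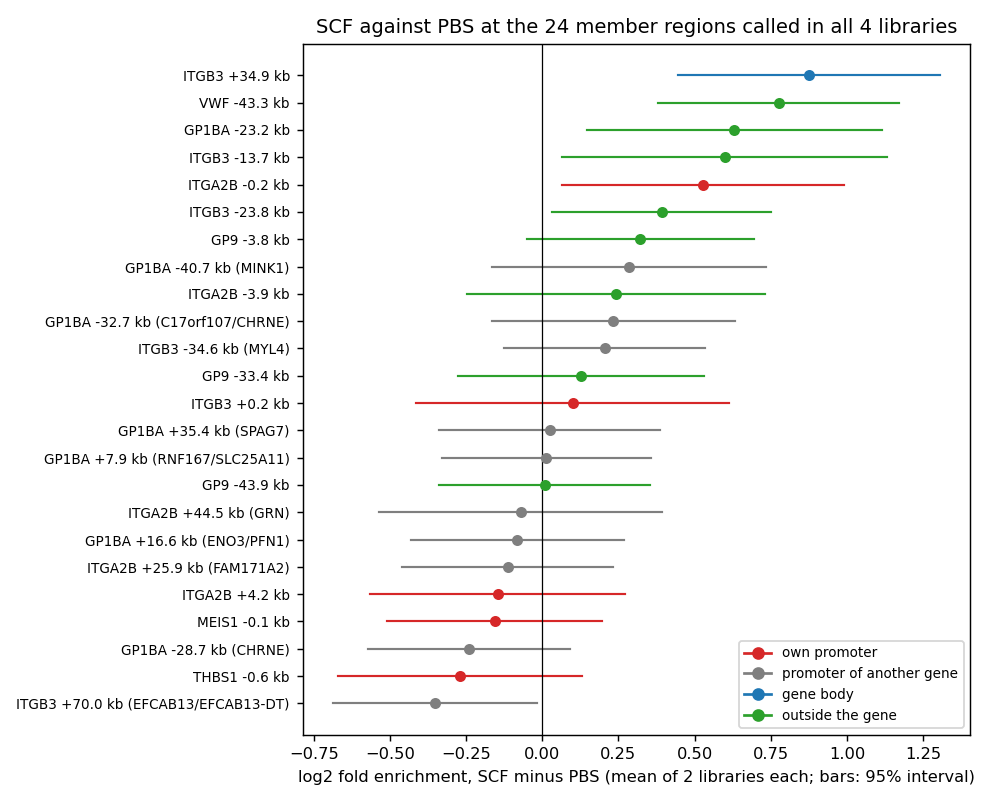
The difference in log2 fold enrichment between SCF and PBS libraries (horizontal axis, mean of 2 libraries each) is shown for the 24 member regions called in all 4 libraries, with bars for the 95% interval from limma and colours for the class of region. The values run from −0.35 at the EFCAB13 promoter to 0.88 at the ITGB3 intron, and every blue or green point lies above 0 on this scale, whereas GP9 −43.87 kb falls below 0 by summit pileup.

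The sequence around the summits was searched for short words of factor families within 100 bp. A GATA word lay in 9 of the 45 regions, beside 25.4% of all regions. Among the 25 regions away from start sites it lay in 5, beside 36.5% of all such regions. The words of ETS factors such as FLI1, AGGAAGT with its variant form CGGAAGT, lay in 0 of 45 regions, beside 7.42% of all regions. The AP-1 word lay in 3 of the 25 distal regions, beside 11.5%, and these were the ITGB3 intron, the VWF upstream region and GP9 −43.87 kb. The first of these had 1 AP-1 word and the second had 2, all in the sequences above, and they were the regions with the largest SCF differences. At GP9, where the AP-1 word lies outside the window shown, the fitted difference was 0.01 (SE 0.15). No AP-1 word lay at GP1BA −23.16 kb, ITGB3 −13.67 kb, ITGB3 −23.84 kb or the ITGA2B start site. These were also higher with SCF by the fit. A link between the word and the treatment was not tested.

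The EGR word lay in 2 of the 45 regions (3.80% of all regions), the RUNX word in 1 (4.12%) and the KLF/SP word in 15 (38.2%). In the 250 bases before the main start, some genes without a promoter peak held these words. An ETS word was found at FLI1 and GP9, and also at MEIS1, which had a promoter peak, beside 14.2% of 19881 protein-coding promoters. A RUNX word was found at GP1BA and GP9 (2.81%) and a GATA word at VWF (10.3%). PF4 had none of the 6 kinds of word. A match is a description of the letters and not a bound site.

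The other genes of the lineage were examined by their start sites. Of 27 further megakaryocyte and platelet genes, 8 had a promoter peak in all 4 libraries, and 16 had none in any library. The 8 were GP1BB, a further subunit of the glycoprotein Ib-IX complex, P2RY1 and F2R, receptors for ADP and thrombin, CD36, PEAR1, CLU, LTBP1 and FERMT3, the kindlin that activates integrins. For CD36 and PEAR1 the peaks lay at other starts than that of the canonical transcript.

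Transcription factors were examined next. All 9 factors that erythroid cells share with megakaryocytes had a promoter peak in every library: GATA1, GATA2, TAL1, LYL1, NFE2, GFI1B, ZFPM1, RUNX1 and MYB. At GATA2 and NFE2 the canonical start itself had a peak in 2 libraries, so 7 of 9 had one in all 4 by that start. Of 7 factors of stem cells and early megakaryocytes, 5 had one, among them ETV6, ETS1, HHEX and MECOM, whereas the ETS factor ERG and MEF2C had none. At ETS1 and MECOM the peaks lay away from the canonical start.

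Promoter peaks were also counted at 12 erythroid marker genes. A peak in all 4 libraries was found at 11 of them, beside 59.7% of all protein-coding genes. Among the 11 were KLF1, EPOR, SLC4A1, TFRC, ANK1, EPB42, AHSP, RHAG and TMCC2. A promoter peak alone does not identify a cell type. The promoter of ALAS2 was called in 1 library. Endothelial cells also express VWF, and 2 of 9 endothelial markers found in the annotation, ESAM and EGFL7, had a promoter peak in every library (at EGFL7 not at the canonical start), while CDH5, TEK, KDR, TIE1 and ROBO4 had none in any. Of 10 liver and neuron genes, 4 had one (SYN1, SNAP25, MAP2 and GRIN1, the last with a peak at the canonical start in 1 library), so promoter peaks were not limited to genes of blood cells.

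**Figure D4:**
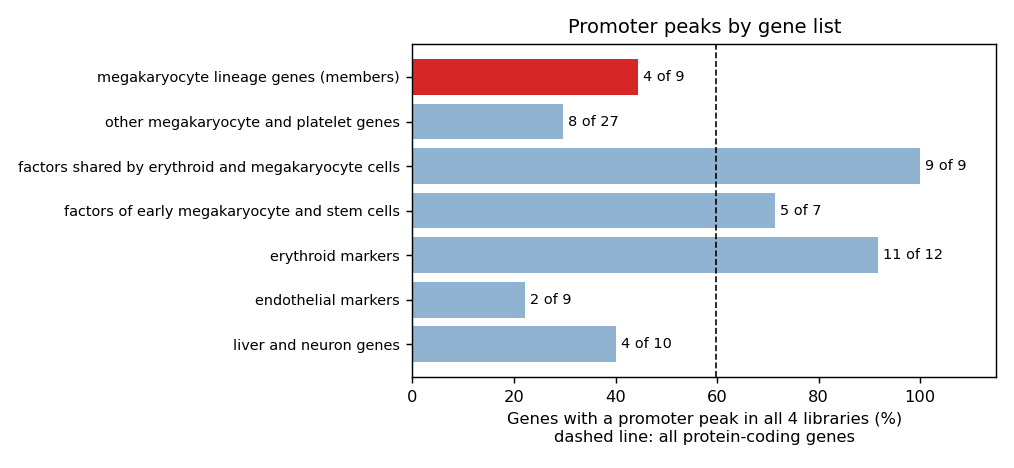
Bars give the percent of genes in each list with a summit within 1 kb of any of their start sites in all 4 libraries, with the number of genes beside each bar, and the dashed line marks the 59.7% of all protein-coding genes. The 9 members (4 of 9) and the further platelet genes (8 of 27) lie to the left of the line, and the shared factors (9 of 9) and erythroid markers (11 of 12) to the right.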

How the data were processed

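ATAC-seq peak lists of 4 sgControl libraries were analysed. Per the labels, the authors used bcl2fastq, Bowtie2 and SAMtools. The study's methods name the ENCODE ATAC-seq pipeline. The settings of its peak caller are not given in the sources used here. The study's methods and processing notes name hg38, whereas the list headers and the series description name hg19. Coordinates were read as hg19, with 0 of 24 chromosomes exceeded in GRCh37, and annotated with GENCODE release 44 lifted to that build. The authors deposited 4 values per peak. The score the authors deposited is a whole number per peak made by their caller, and was not used. The fold enrichment they deposited fits the ratio of the summit pileup to the local background, with the same small constant added to both. The genome-wide background pileup was 0.885 to 1.50 fragments per library, so the constant makes the fold lower than the plain ratio. The −log10 p-value and −log10 q-value were also used as deposited. Replicate numbers inside the peak names differ from the labels, which were followed.

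Peaks sharing at least 1 bp were merged with Python 3.11.15 and pandas 2.3.3. Whole-number pileups were recovered from the fold and −log10 p in 100% of peaks with a usable p (relative tolerance 0.0001). The study's comparison on reads cannot be run on peak lists, so limma 3.58.1 (R 4.3.3) was used on quantile-normalised log2 fold enrichment. It was tested on simulated data. The fit needs a call in every library, so regions missing from a library are described by their calls alone. All start sites, own promoters, up to 3 distal regions per gene called in all 4 libraries, treatment-only regions and neighbouring promoters are named. Regions at an unadjusted p under 0.05 were singled out after their values were seen. Some genes of the lists are not reported by name here. The members and lists were chosen with earlier results of these data known. p-values measure only the spread between these duplicates.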

Additional observations from a re-analysis of the deposited data

How the results depend on the processing

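In 46 of 58 repeats, a main count stayed within 1.5 times the reported value, or the member median within its SD over pairs of libraries (0.097). Some of the 46 had little room to move. Leaving out a library can only keep or raise the count of genes with a promoter peak in every library. With 0 of all regions called in the main fit, the count of called members could hardly change either. limma called 0 member regions at an adjusted p under 0.05 under each alternative. The median itself is not stable. It was 0.11, and fell to 0.02 with peaks of −log10 q of at least 5, and ran from 0.05 to 0.20 without each library in turn. The replicate numbers did not pair the samples (correlation of deviations 0.01), and a replicate block gave 0 called regions. In this balanced layout, neither the block nor an intensity trend in limma can change the fitted differences. Their medians of 0.11 were fixed in advance, although they are counted among the 46 repeats.

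With −log10 q of at least 5, the genes with a promoter peak in all libraries fell from 4 to 2 (THBS1 and MEIS1 were lost), and 1 region was called in SCF only. A limit of 500 bp left 3. Member regions numbered 21 within 15 kb and 10 in gene bodies. With lists cut to the same length, 3 regions were called in SCF only. Regions called in PBS only fell to 0 within 15 kb and to 0 with canonical start sites, an alternative added after the data were seen. Without each library in turn, SCF-only regions ranged from 0 to 5 (3 without PBS replicate 2 or SCF replicate 2, 5 without SCF replicate 1) and PBS-only regions from 1 to 4 (4 without PBS replicate 2, 2 without SCF replicate 2), since fewer libraries must then agree. The cause of the other changes was not tested.

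Of 15 single regions, the sign turned at 4 with small differences. At GP9 −43.87 kb the difference was −0.059 with summit pileups and −0.075 to 0.087 without each library in turn. Without each library it ran from −0.055 to 0.31 at GP9 −33.44 kb, from −0.17 to 0.37 at the ITGB3 start site and from −0.31 to 0.019 at the internal ITGA2B start. The lowest summit pileup called was 5 to 7 fragments per library, and a site below the calling threshold may still be accessible.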
